A study of Mus musculus with 16 samples.

Results

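Smooth muscle contractile regulators and dense-body genes comprised 9 protein-coding genes, Smtn, Lmod1, Cald1, Ppp1r14a, Ppp1r12b, Des, Synpo2, Csrp1 and Pgm5, chosen by name from the 52636 genes of the count table. All 9 were among the 17125 genes with enough counts to be tested. The RNA came from whole descending thoracic aorta of mice, so the smooth muscle of the wall was measured together with the endothelium, the adventitia and any fat or muscle left on the vessel. The 4 groups of 4 samples were C57BL/6J with hypertension induced by angiotensin II (AngII), C57BL/6J control, 129S6/SvEvTac with AngII-induced hypertension and 129S6/SvEvTac control. Both are inbred strains, and no group carried an engineered allele in the labels. AngII is a vasoconstrictor peptide of the renin-angiotensin system. Neither its dose and duration, nor what the controls received, nor the age and sex of the mice were given in the sources used here. Whether each sample was a different animal is not stated in the labels. The p-values therefore refer to the spread between samples, which may be technical.

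Vascular smooth muscle shortens when myosin, switched on by phosphorylation of its light chain, pulls on actin filaments that are anchored in dense bodies inside the cell and in dense plaques at its surface. Smoothelin, leiomodin and caldesmon act on the actin filament, myosin phosphatase and its inhibitor set how long the light chain stays phosphorylated, and desmin, synaptopodin 2, the LIM protein CSRP1 and PGM5 belong to the scaffold that carries the force. Several of these genes are standard markers of contractile, as opposed to proliferating, smooth muscle cells.

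Total counts ran from 42116120 to 61381134 per library in 15 libraries and reached 121573945 in 129S6/SvEvTac AngII replicate 5. Levels are given as CPM, counts scaled to the library total with edgeR's TMM factors. The tissue label was checked against marker genes. All 10 smooth muscle markers had counts in every library, with a summed level of 15155 to 36863 CPM in C57BL/6J AngII aortas against 47580 to 50788 CPM in C57BL/6J controls, and 44612 to 56585 CPM in 129S6/SvEvTac AngII aortas against 48783 to 53845 CPM in 129S6/SvEvTac controls. Of 22 skeletal and cardiac muscle markers, 12 to 14 per group had counts in every library, and 1, Myh4, was at 0 throughout. Their summed level was 20.3 to 531 CPM. The opposite strand holds exons of 1 gene model over 16.3% and of another over 0.89% of the exonic bases of Smtn, and of 1 each over 5.86% of those of Des and 4.74% of those of Ppp1r12b. As the strand setting of the counting was not stated, counts of these 3 genes may include reads of those models.

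The first comparison asked what AngII hypertension did to these genes in C57BL/6J aortas. All 9 fell. Their fitted levels stood at 31.3% of control for Synpo2 and 31.9% for Ppp1r14a, and at 59.9% for Smtn, which fell least. The samples of the AngII and control groups did not overlap for any of the 9 genes. By edgeR's quasi-likelihood test 38.9% of all genes tested were called at an adjusted p below 0.05, 17.1% lower and 21.8% higher. The groups did not overlap, with AngII lower, for 16.03% of all genes. The median log2 fold change of the 9 genes was -1.17, beside 0.01 for all genes tested. In RNA from whole tissue, fewer smooth muscle cells and less of these RNAs per cell cannot be told apart.

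Because the 9 genes fell together, the bases upstream of their transcription start sites were searched for 2 motifs of smooth muscle promoters. These were the CArG box, which binds serum response factor, and the MCAT element CATTCC, which binds TEAD factors, both read on either strand. RefSeq windows on GRCm38.p6, from 250 bases before to 50 after a start, matched all 9 genes with 12 windows. No window held a CArG box, which 1.63% of all 32851 RefSeq windows hold. With 1 mismatch allowed, the box was matched in 2 of the 12 windows, compared with 21.1% of all windows. CATTCC or its reverse complement GGAATG was found in 4 of the 12 windows, compared with 14.7% of all windows. The 4 stretches below hold every match, in capitals, in the direction of transcription, and no matches overlapped. In the Lmod1 and Cald1 stretches the 10-letter capitals are the CArG box with 1 mismatch and the 6-letter capitals the MCAT element.
Smtn, GRCm38 chr11:3539479-3539542, minus strand: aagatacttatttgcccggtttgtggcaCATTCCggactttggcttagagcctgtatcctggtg
Lmod1, GRCm38 chr1:135324594-135324718, plus strand: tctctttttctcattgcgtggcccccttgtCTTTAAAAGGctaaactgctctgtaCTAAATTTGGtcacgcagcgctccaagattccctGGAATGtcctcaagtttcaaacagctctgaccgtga
Cald1, GRCm38 chr6:34598271-34598386, plus strand: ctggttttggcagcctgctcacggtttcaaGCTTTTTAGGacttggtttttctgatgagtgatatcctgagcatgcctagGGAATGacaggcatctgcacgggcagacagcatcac
Ppp1r12b, GRCm38 chr1:134803865-134804047, minus strand: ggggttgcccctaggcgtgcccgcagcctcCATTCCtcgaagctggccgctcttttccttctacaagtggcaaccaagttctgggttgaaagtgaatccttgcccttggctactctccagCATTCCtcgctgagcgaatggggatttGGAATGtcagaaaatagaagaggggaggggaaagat
The Ppp1r12b stretch lies before a start inside the gene, at base 134803842, and the window before its other RefSeq start, at base 134955940, held neither motif. The Smtn stretch also lies inside the annotated gene, which reaches base 3540612, before a start at base 3539292. The other Cald1 window, before a start inside the gene at base 34709444, held neither motif. A match is only a run of letters, and genes without one had these letters absent from this window alone.

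Smtn, Lmod1 and Cald1 encode proteins of the actin filament. Smtn, smoothelin, an actin-binding protein of contractile smooth muscle (ENSMUSG00000020439.17, GRCm38 chromosome 11, 3517523 to 3540612, minus strand), had 735, 851, 1221 and 866 CPM in C57BL/6J AngII aortas, against 1523, 1526, 1567 and 1520.2 CPM in C57BL/6J controls. The controls lay within a narrow band, and AngII replicate 3 was the nearest to it. Smtn fell by 0.74 ± 0.13 on the log2 scale (SE, n = 4 per group, adjusted p = 0.000403). Lmod1, leiomodin 1, which starts new actin filaments (ENSMUSG00000048096.7, chromosome 1, 135324807 to 135368065, plus strand), had 411, 439.8, 811 and 506 CPM with AngII, against 1516, 1465, 1523 and 1495 CPM in controls. Every AngII sample lay far below the lowest control, again with replicate 3 highest. Lmod1 fell to 36.1% of its control level (log2 fold change -1.47 ± 0.16, adjusted p = 8.81e-06). Cald1, caldesmon, which binds actin and tropomyosin and holds back myosin (ENSMUSG00000029761.16, chromosome 6, 34598500 to 34775473, plus strand), had 832, 1689, 1506 and 1374 CPM with AngII, against 2652, 1727, 2619.8 and 2692 CPM in controls. Its groups were separated only by the gap between AngII replicate 2 and control replicate 2. Cald1 fell by 0.84 ± 0.23 (adjusted p = 0.00837), and the call was lost with the adipocyte marker score as a covariate (log2 fold change -0.75, adjusted p = 0.0823). GENCODE gives Cald1 18 transcripts, and the counts are per gene, so its smooth muscle and non-muscle forms were not separated.

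Ppp1r14a and Ppp1r12b belong to the switch that removes phosphate from the myosin light chain. Ppp1r14a encodes CPI-17, which inhibits myosin phosphatase once it is itself phosphorylated (ENSMUSG00000037166.5, chromosome 7, 29289308 to 29293801, plus strand). It had 51.1, 64.7, 109 and 73.5 CPM in C57BL/6J AngII aortas, against 214, 221, 237 and 266 CPM in C57BL/6J controls. The highest AngII sample, replicate 3, lay well under the lowest control. The log2 fold change was -1.65 ± 0.17 (SE, n = 4 per group, adjusted p = 6.87e-06), the smallest adjusted p among the 9 genes. Ppp1r12b encodes MYPT2, a subunit that directs the phosphatase to myosin (ENSMUSG00000073557.11, chromosome 1, 134754658 to 134955942, minus strand). Its levels were 412, 489, 942 and 589 CPM with AngII, against 1367, 1368, 1313 and 1443 CPM in controls. AngII replicate 3 was the nearest of its group to the controls. Ppp1r12b fell by 1.17 ± 0.19 (adjusted p = 0.000225). An inhibitor of the phosphatase and a targeting subunit of it were thus both lower.

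Des, Synpo2, Csrp1 and Pgm5 encode parts of the intermediate filament, dense-body and dense-plaque scaffold. Des, desmin, the muscle intermediate filament protein (ENSMUSG00000026208.9, chromosome 1, 75360329 to 75368579, plus strand), had 59.3, 53.0, 84.4 and 58.6 CPM in C57BL/6J AngII aortas, against 115, 132, 148 and 151 CPM in C57BL/6J controls. All AngII samples were below the lowest control, with a log2 fold change of -1.09 ± 0.14 (SE, n = 4 per group, adjusted p = 3.83e-05). Striated muscle also expresses Des, and the summed level of the 22 skeletal and cardiac muscle markers was 227, 24.7, 22.4 and 41.0 CPM in AngII replicates 1, 2, 3 and 5, against 24.2 to 40.1 CPM in controls. With the score of these markers as a covariate the log2 fold change of Des was -1.07 (adjusted p = 8.22e-05). Synpo2, synaptopodin 2, which bundles actin and binds alpha-actinin and filamin (ENSMUSG00000050315.13, chromosome 3, 123076519 to 123236149, minus strand), had 216, 266, 812 and 393 CPM with AngII, against 1316, 1336, 1339 and 1395 CPM in controls. It spread most among the AngII samples, with a coefficient of variation of 64.2%, beside 2.53% among controls. Synpo2 fell by 1.67 ± 0.31 (adjusted p = 0.000552).

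Csrp1, a LIM-domain protein that binds zyxin and alpha-actinin (ENSMUSG00000026421.14, chromosome 1, 135720061 to 135752232, plus strand), had 899, 1161, 2154 and 1370.2 CPM in C57BL/6J AngII aortas, against 2888, 2846, 3315 and 3101 CPM in C57BL/6J controls. It was the most abundant of the 9 genes per length of annotated exon in every group, and replicate 3 again came closest to the controls. Its log2 fold change was -1.12 ± 0.19 (SE, n = 4 per group, adjusted p = 0.000284). Pgm5, also called aciculin, is a relative of phosphoglucomutase found at adherens-type junctions and muscle attachment sites (ENSMUSG00000041731.13, chromosome 19, 24683016 to 24861855, minus strand). It had 104, 135, 271 and 168 CPM with AngII, against 423, 454, 448 and 428 CPM in controls. No AngII sample approached the controls, and Pgm5 fell by 1.37 ± 0.22 (adjusted p = 0.000215).

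**Figure D1:**
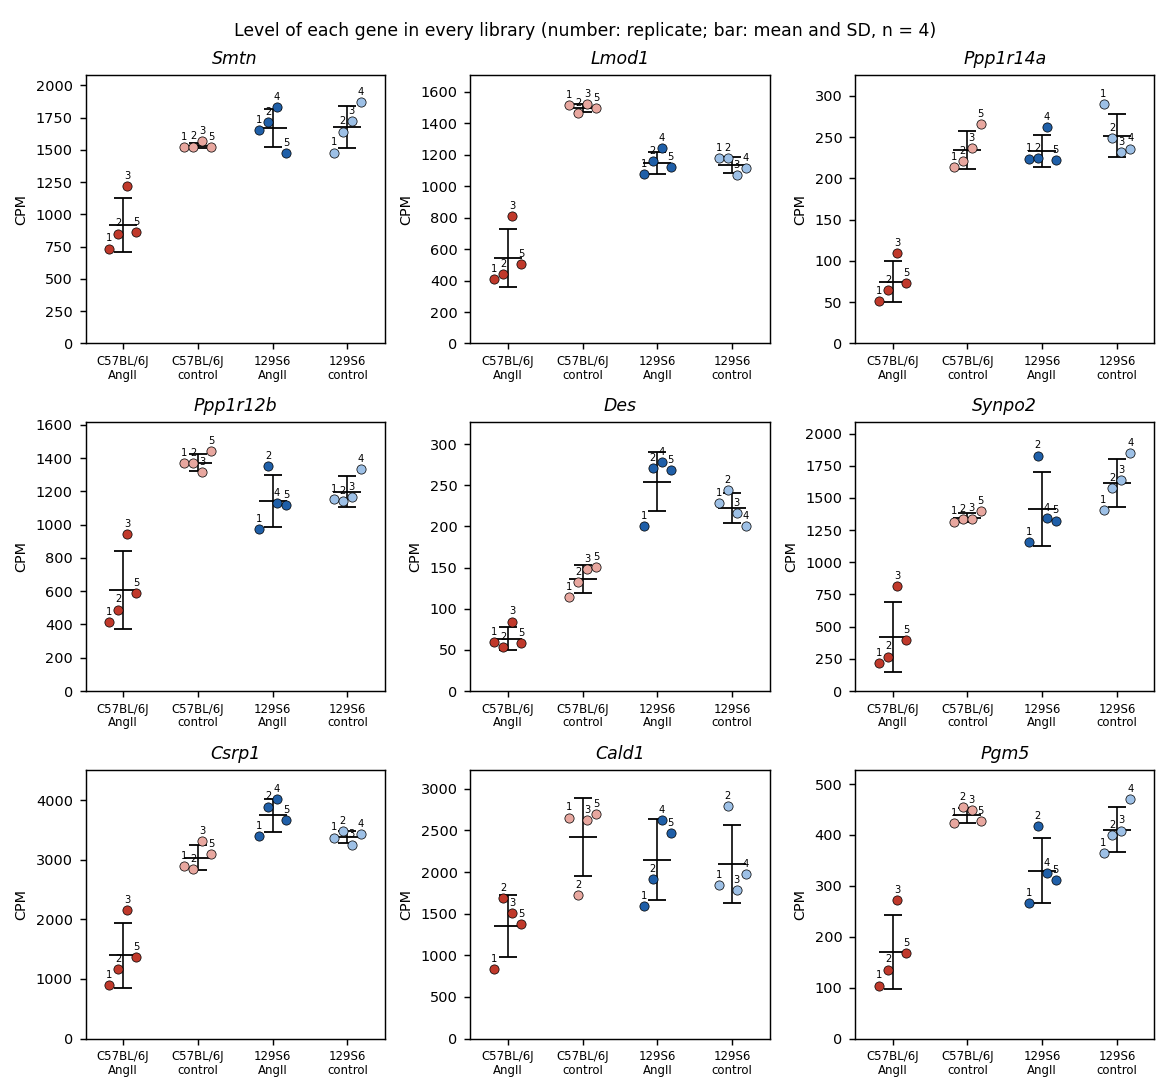
Level in CPM (linear axes from 0) of each of the 9 genes in every library, by group, with the replicate number above each point and bars for the mean and SD (n = 4). In C57BL/6J the AngII points lie below all control points for every gene. In 129S6/SvEvTac the groups overlap for every gene, as they do for most genes tested.

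The 4 C57BL/6J AngII libraries kept nearly the same order from gene to gene. Replicate 1 was the lowest for 8 of the 9 genes, with a median over the genes of 29.6% of the control mean, and Des was the exception, being lowest in replicate 2. Replicate 3 was the highest for 8 of the 9, with a median of 62.0%, and Cald1 was the exception, being highest in replicate 2. Replicates 2 and 5 had medians of 35.7% and 42.9%. Markers of other cell types also differed between these libraries. The summed level of 12 adipocyte markers was 5573, 838, 313 and 2955 CPM in AngII replicates 1, 2, 3 and 5, against 161 to 498 CPM in C57BL/6J controls, and 11 of the 12 were called higher. The summed level of 10 macrophage markers was 1975.5, 1208, 1131 and 2226 CPM in the same order, against 416 to 533 CPM in controls, with all 10 called higher. Replicate 3, where the 9 genes were least reduced, had the lowest adipocyte and macrophage sums of its group. Fibroblast markers summed to 4171 to 5961 CPM, against 3582 to 4141 CPM in controls, with 5 of 10 called higher and 2 lower. The part of these other cells in the lower levels was not tested. Without replicates 1 and 5, a choice made after seeing the data, 8 of the 9 genes were still called lower, and Cald1 was not (log2 fold change -0.61, adjusted p = 0.0708).

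**Figure D2:**
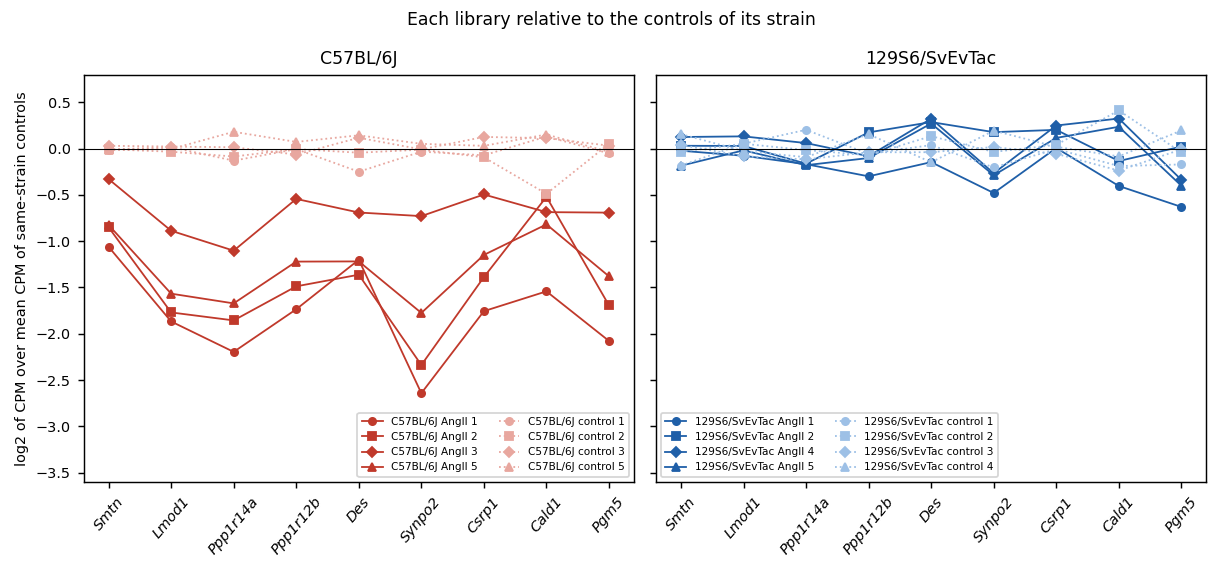
Log2 of each library's CPM over the mean CPM of the controls of its strain, for the 9 genes along the x axis (C57BL/6J left, 129S6/SvEvTac right; solid lines AngII, dotted lines control, one line per library). The C57BL/6J AngII lines run nearly parallel below 0, with replicate 3 on top for all genes but Cald1, while the 129S6/SvEvTac AngII lines lie around 0.

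The same question was put to 129S6/SvEvTac aortas. There 0 of the 9 genes were called, and 0 had an unadjusted p below 0.05. Of all genes tested 12.2% were called, 7.71% higher and 4.47% lower. Log2 fold changes ran from -0.32 for Pgm5 to 0.20 for Des, with a median of -0.01, beside 0.0027 for all genes tested, and adjusted p of 0.404 to 0.979. The 95% intervals reached at the lowest -0.83, for Synpo2, and at the highest 0.54, for Csrp1, and the narrowest was that of Smtn, from -0.28 to 0.27. A missed threshold does not show that the groups were alike. AngII and control samples overlapped for all 9 genes, as they did for most genes tested. Of all genes, 10.56% were lower and 12.4% higher with AngII without overlap.

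Among the actin filament genes, Smtn had 1653, 1716, 1832 and 1478 CPM in 129S6/SvEvTac AngII aortas, against 1479, 1642, 1727 and 1872 CPM in 129S6/SvEvTac controls. Lmod1 had 1076, 1158, 1244 and 1120.3 CPM with AngII, against 1177, 1177, 1072 and 1114 CPM in controls. Both sets of values were interleaved. Cald1 had 1586, 1912, 2628 and 2471 CPM with AngII, against 1841, 2793, 1779.6 and 1979 CPM in controls, the widest scatter relative to its mean in either group (coefficients of variation 22.6% and 22.4%). Of the phosphatase genes, Ppp1r14a had 224, 225, 262 and 222 CPM with AngII, against 289.7, 249, 232 and 236 CPM in controls. Ppp1r12b had 973, 1352, 1131 and 1116 CPM with AngII, against 1151, 1140.1, 1165 and 1334 CPM in controls. The AngII samples of Ppp1r12b lay on both sides of the controls.

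Des, in contrast to its lower level in C57BL/6J, had 201, 271, 278 and 268 CPM in 129S6/SvEvTac AngII aortas, against 228, 244, 216 and 201 CPM in controls. The AngII samples other than replicate 1 were above every control and replicate 1 was among the lowest, and the log2 fold change was 0.20 ± 0.14 (SE, n = 4 per group, adjusted p = 0.434). The skeletal and cardiac muscle marker sum was 41.1, 27.9, 40.4 and 531 CPM in AngII replicates 1, 2, 4 and 5, against 58.7, 20.3, 339 and 103 CPM in control replicates 1, 2, 3 and 4. Des was highest among the controls in replicate 2, which had the lowest muscle marker sum. With AngII, Des was above every control in replicate 5, which had the highest sum. Des was higher still in AngII replicates 2 and 4, whose sums were 27.9 and 40.4 CPM. With that score as a covariate its log2 fold change was again 0.20 (adjusted p = 0.421). Synpo2 had 1159, 1828, 1344 and 1324 CPM with AngII, against 1404, 1577, 1636 and 1849 CPM in controls. Csrp1 had 3397, 3891, 4020.1 and 3663 CPM with AngII, against 3370.2, 3477, 3253 and 3427 CPM in controls, with only AngII replicate 1 inside the control range. Pgm5 had 265, 417, 325 and 311 CPM with AngII, against 365, 399, 408 and 471 CPM in controls, and 3 of its AngII samples were below the lowest control. Its log2 fold change of -0.32 ± 0.22 had an unadjusted p of 0.167. Replicate 1 was the lowest 129S6/SvEvTac AngII library for 7 of the 9 genes and replicate 4 the highest for 6. Replicate 2 was the highest for 3, Ppp1r12b, Synpo2 and Pgm5. Its endothelial markers summed to 2454 CPM, against 788, 834 and 1261 CPM in AngII replicates 1, 4 and 5. The part of this in the levels was not tested.

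The design also asked whether the AngII effect differed between strains, which was tested by an interaction contrast, C57BL/6J minus 129S6/SvEvTac. For 8 of the 9 genes the C57BL/6J effect was lower, while 9.96% of all genes tested were called in this comparison, 4.62% lower and 5.34% higher. Differences of the largest size were those of Ppp1r14a, at -1.54 ± 0.24 on the log2 scale (SE, adjusted p = 0.0023), Lmod1, at -1.49 ± 0.22 (adjusted p = 0.00192), and Synpo2, at -1.48 ± 0.42 (adjusted p = 0.0389). Des differed by -1.29 ± 0.20 (adjusted p = 0.0023) and Csrp1 by -1.27 ± 0.26 (adjusted p = 0.00944). Ppp1r12b differed by -1.11 ± 0.27 (adjusted p = 0.0193) and Smtn by -0.73 ± 0.18 (adjusted p = 0.0223). Cald1 was not called, at -0.88 ± 0.32 (adjusted p = 0.0967), with a 95% interval from -1.56 to -0.20. Pgm5, at -1.05 ± 0.31 (adjusted p = 0.0438), and Synpo2 were near the threshold, and each lost its call in 14 of the 16 fits that left out a single library. Both were also lost with the adipocyte score as a covariate (Synpo2 -1.13, adjusted p = 0.0679, and Pgm5 -0.77, adjusted p = 0.091) and with no filter on low counts (adjusted p = 0.0683 and 0.0642). Without 129S6/SvEvTac AngII replicate 4 the count was 5, since Smtn was also lost. Without C57BL/6J AngII replicates 1 and 5, chosen after seeing the data, 4 differences were called, those of Lmod1, Ppp1r14a, Des and Csrp1. In the same contrast 9 of the 10 macrophage markers were called higher (median log2 difference 1.57), and 0 of the 12 adipocyte markers were called (median 2.28). In 129S6/SvEvTac, macrophage markers summed to 276 to 521 CPM with AngII, against 214 to 390.02 CPM in controls, and adipocyte markers to 473 to 1986 CPM with AngII, against 218 to 979 CPM in controls. Their part in the strain difference was not tested beyond the adipocyte covariate.

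**Figure D3:**
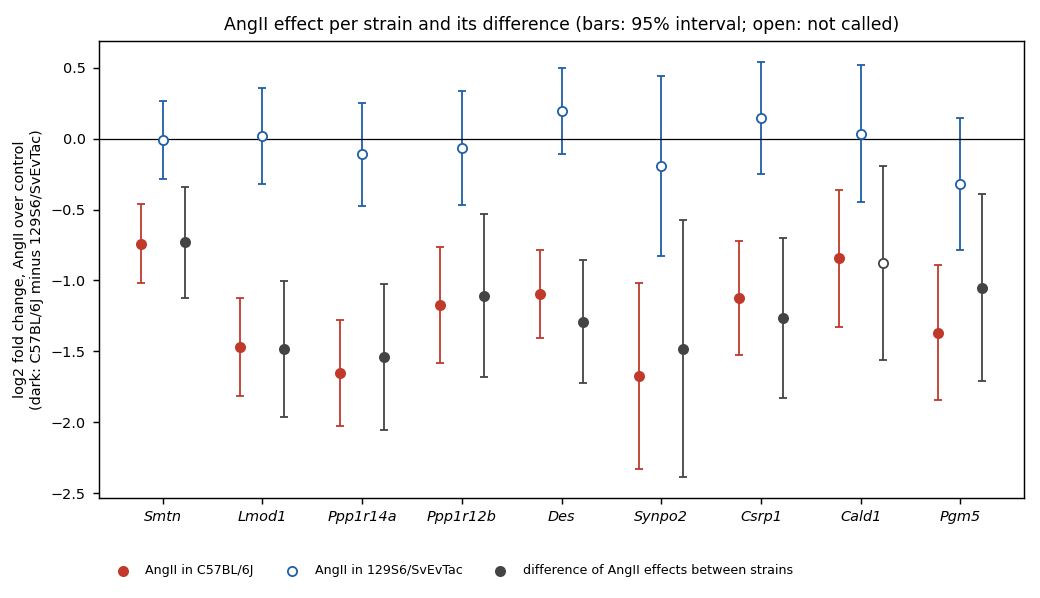
Log2 fold change of AngII over control in C57BL/6J (red) and 129S6/SvEvTac (blue), and their difference, C57BL/6J minus 129S6/SvEvTac (dark), for the 9 genes, with 95% intervals and open symbols for values not called. All 9 red symbols lie at -0.74 or lower, all blue ones between -0.32 and 0.20, and Cald1 has the only open dark symbol.

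The strains were also set side by side within treatment. In controls 1 of the 9 genes, Des, was called, and 10.4% of all genes tested were, 5.06% lower in C57BL/6J and 5.35% higher. Control aortas held a mean of 136 ± 16.6 CPM of Des in C57BL/6J and of 222 ± 18.4 CPM in 129S6/SvEvTac (SD, n = 4 each), with no overlap and a log2 difference of -0.71 ± 0.14 (adjusted p = 0.00414). Lmod1 averaged 1499.6 ± 25.8 and 1135 ± 51.4 CPM in C57BL/6J and 129S6/SvEvTac controls. Its groups did not overlap, yet the difference of 0.40 ± 0.16 did not pass (adjusted p = 0.135). It passed when only the control groups were fitted (adjusted p = 0.000488). The main fit took 1 spread per gene from all 4 groups, so its p does not measure the spread of the controls alone. The coefficient of variation of Lmod1 was 33.9% in C57BL/6J AngII, and 1.72% and 4.53% in C57BL/6J and 129S6/SvEvTac controls. Synpo2, at 1346 ± 34.1 and 1617 ± 184 CPM in C57BL/6J and 129S6/SvEvTac controls, was also without overlap and was not called (adjusted p = 0.686). When only the control groups were fitted it was called too (log2 difference -0.27, adjusted p = 0.0408). With AngII, all 9 genes were lower in C57BL/6J than in 129S6/SvEvTac, where 31.3% of all genes were called, 14.6% lower and 16.8% higher. Des had the largest difference, at 63.8 ± 14.0 CPM in C57BL/6J and 255 ± 36.05 CPM in 129S6/SvEvTac, a log2 difference of -1.996 ± 0.15 (adjusted p = 1.58e-07). Cald1 had the smallest, at 1350.0 ± 369 and 2149 ± 485 CPM in the same order, and its groups overlapped (log2 difference -0.67 ± 0.23, adjusted p = 0.0349). That call was lost in 7 of the 16 fits that left out a single library (adjusted p = 0.0502 to 0.122), those without C57BL/6J AngII replicate 1 or 5, C57BL/6J control replicate 1 or 3, 129S6/SvEvTac AngII replicate 4 or 5 or 129S6/SvEvTac control replicate 4, and in 6 of the 12 other alternatives, where the highest adjusted p was 0.223. Pgm5 overlapped as well, and the other 7 did not, while 12.3% of all genes were without overlap and lower in C57BL/6J with AngII. In controls 10.98% of all genes were lower and 11.3% higher in C57BL/6J without overlap. These strain comparisons share their samples with the AngII comparisons and are not independent of them.

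Levels can be compared between genes only per length of exon. The length used was that of all annotated exons of a gene, merged over its transcripts. It was 12041 bases for Cald1, with 18 transcripts, and 3948 bases for Lmod1, with 1. A gene expressed mainly in a shorter form would stand too low, so the order is approximate. In C57BL/6J controls Csrp1 had 1553 CPM per kilobase of exon, Lmod1 379.8, Smtn 350.3, Cald1 201, Ppp1r14a 171, Pgm5 121, Synpo2 103, Ppp1r12b 91.6 and Des 36.3. Of neighbours in this order only Cald1, from 143 to 224, and Ppp1r14a, from 157 to 194, overlapped between samples. Such overlap does not measure the error from the lengths. With AngII in C57BL/6J, Csrp1 remained the highest at 714 CPM per kilobase and Des the lowest at 17.0, while Smtn, at 209.7, stood above Lmod1, at 137. In 129S6/SvEvTac Smtn was above Lmod1 in both groups, at 381 and 291 CPM per kilobase with AngII and at 384 and 288 in controls.

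The counts were also scaled to 5 main contractile genes of smooth muscle, Acta2, Myh11, Tagln, Cnn1 and Myl9, in place of TMM. The ratio to these 5 asked whether the 9 genes changed to the same degree. Such a ratio shows unequal change, and neither which side changed nor in which cells of the tissue. The 5 genes themselves fell with AngII in C57BL/6J under TMM scaling, with log2 fold changes of -0.95, -1.59, -0.87, -0.89 and -1.45 in that order. On the ratio scale the median over all genes was 1.31, and 77.5% of all genes were called, 76.8% higher and 0.736% lower. With AngII in C57BL/6J, 1 of the 5 scaling genes was itself called higher on this scale and 1 lower, so the 5 did not change equally. A call for one of the 9 genes is therefore a departure from the geometric mean of the 5, not from a change common to them. Relative to that mean, 3 of the 9 changed with AngII in C57BL/6J. Smtn was higher by 0.48 ± 0.14 on the log2 scale (SE, n = 4 per group, adjusted p = 0.0059). Synpo2 was lower, at -0.61 ± 0.18 (adjusted p = 0.00556), and so was Ppp1r14a, at -0.48 ± 0.15 (adjusted p = 0.00692). With Acta2 and Myh11 alone as the scale, Ppp1r14a was not called (log2 fold change -0.32, adjusted p = 0.059) and Cald1 was called higher (0.55, adjusted p = 0.0423). Ppp1r12b at -0.02, Csrp1 at 0.03 and Des at 0.14 were not called, nor were Lmod1 at -0.28, Pgm5 at -0.23 and Cald1 at 0.39. The signs of these ratios differ from those under TMM scaling for Smtn, Des, Csrp1 and Cald1.

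On the same ratio scale 0 of the 9 genes were called with AngII in 129S6/SvEvTac, where 2.54% of all genes were, 1.66% higher and 0.882% lower. Of the 9, 1 had an unadjusted p under the threshold, Pgm5 (log2 fold change -0.37 ± 0.16, edgeR adjusted p = 0.34). The difference between strains was called for Smtn, at 0.55 ± 0.20 (adjusted p = 0.0238), and for none of the other 8 (70.9% of all genes called, 70.7% higher and 0.169% lower). That call was lost without any of 3 control libraries, with adjusted p of 0.0504 to 0.0533. In controls Lmod1 alone was called, higher in C57BL/6J by 0.51 ± 0.14 (adjusted p = 0.0362), and 5.2% of all genes were called, 2.7% higher and 2.49% lower. The Lmod1 call was lost in 10 of the 16 fits that left out a single library. With AngII 83.3% of all genes were called, 81.5% higher and 1.72% lower. Cald1 at 0.71, Smtn at 0.52 and Ppp1r12b at 0.41 were higher in C57BL/6J, and Des at -0.60 and Synpo2 at -0.52 were lower. Ppp1r12b lost its call without 129S6/SvEvTac AngII replicate 1 or 4 (edgeR adjusted p = 0.0625 and 0.0575). Synpo2 lost its call without C57BL/6J AngII replicate 2 or 129S6/SvEvTac AngII replicate 2 (adjusted p = 0.0559 and 0.0704). Other single omissions added a call for Lmod1, Ppp1r14a or Pgm5. Of the 5 scaling genes themselves, 2 were called higher in C57BL/6J and 0 lower.

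**Figure D4:**
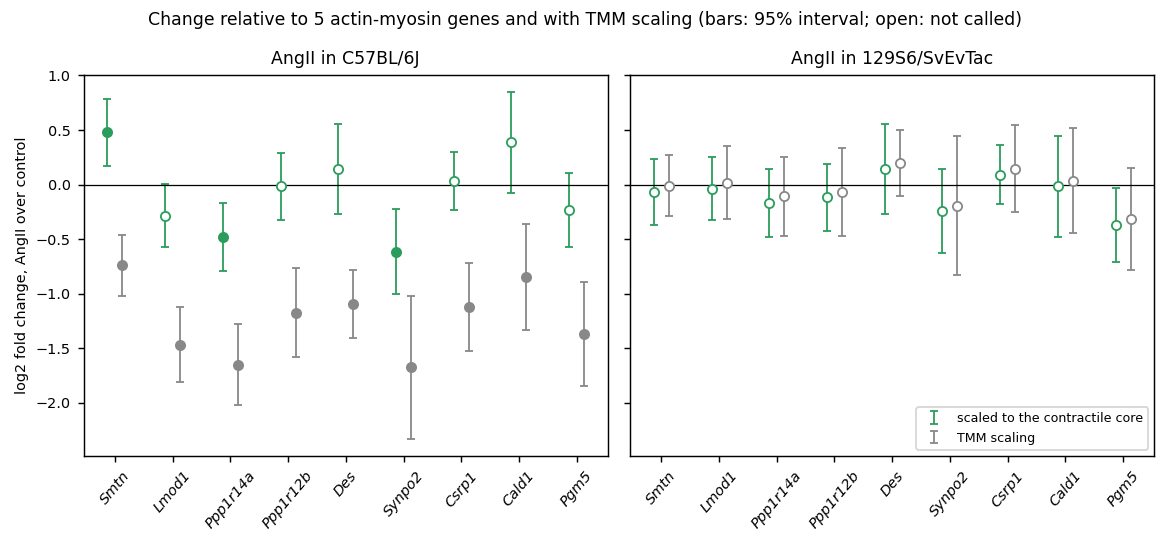
Log2 fold change of AngII over control for the 9 genes with counts scaled to Acta2, Myh11, Tagln, Cnn1 and Myl9 (green) and with TMM scaling (grey), in C57BL/6J (left) and 129S6/SvEvTac (right), with 95% intervals and open symbols for values not called. In C57BL/6J the green values lie around 0, from -0.61 for Synpo2 to 0.48 for Smtn, while the grey ones are all below 0.

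The 9 genes varied together across libraries. Over the 16 libraries, Pearson's r of log2 CPM ran from 0.61 to 0.99 over the 36 pairs, with a median of 0.92. These libraries include the low C57BL/6J AngII group. For deviations from the group means the median r was 0.79. Over the 12 libraries outside that group it was 0.35, with a range from -0.25 to 0.97, the highest being that of Synpo2 and Pgm5. Cald1 was the least like the other members, with a median r of 0.75 over the 16 libraries and 0.35 for deviations from group means. Among 10860 other genes of at least 5 CPM on average, those most like the mean of the 9 over the 16 libraries were Kank2, an adaptor of cell-matrix adhesions (r = 0.99), Myh11 (0.99) and Acta2 (0.99). For the single genes, the closest were Itpr1, the inositol trisphosphate receptor of the calcium store, for Smtn (0.98), Npr1, a natriuretic peptide receptor, for Lmod1 (0.99), Wscd2 for Ppp1r14a (0.99), Dtna for Ppp1r12b (0.98), Msrb1 for Des (0.98), Kank2 for Synpo2 (0.99), Ppef1 for Csrp1 (0.99), Mark1 for Cald1 (0.85) and Vezf1 for Pgm5 (0.99). For deviations from group means over the 12 libraries outside the C57BL/6J AngII group, r of these pairs was lower, from 0.38 for Des with Msrb1 to 0.89 for Pgm5 with Vezf1. With the mean of the 9 it was 0.51 for Kank2, 0.55 for Myh11 and 0.78 for Acta2. These correlations share the libraries and their normalization, and are descriptions.

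Genes that act with the 9 were read from lists of textbook membership. Counts of genes called are given beside the share of all genes called in the same direction. Genes that act on myosin phosphatase or near it are given singly, chosen by smallest p, and say nothing of the pathway as a whole. Ppp1r12a, encoding MYPT1, the main myosin-targeting subunit and the paralogue of Ppp1r12b, averaged 293 ± 144 CPM with AngII and 767 ± 27.7 CPM in controls of C57BL/6J (SD, n = 4 each), a log2 fold change of -1.39 ± 0.23 (adjusted p = 0.000223). Ppp1r14b, a paralogue of Ppp1r14a that also inhibits the phosphatase, went the other way, at 56.7 ± 14.0 CPM with AngII and 25.0 ± 3.66 CPM in controls (log2 fold change 1.18 ± 0.18, adjusted p = 9.84e-05). Ppp1r14c, another of these inhibitors, fell in both strains from a low level. It averaged 6.27 ± 3.25 CPM with AngII and 11.6 ± 2.82 CPM in controls of C57BL/6J (adjusted p = 0.0166), and 4.96 ± 0.665 CPM with AngII and 10.9 ± 1.13 CPM in controls of 129S6/SvEvTac (adjusted p = 0.0133). Prkca, a protein kinase C that can phosphorylate CPI-17, rose 1.62-fold in C57BL/6J (adjusted p = 5.32e-05) and 1.52-fold in 129S6/SvEvTac (adjusted p = 0.000921). Dapk3, a kinase of the myosin light chain and of the phosphatase, was called higher in 129S6/SvEvTac (log2 fold change 0.39, adjusted p = 0.0214) and not called in C57BL/6J (-0.10, adjusted p = 0.479), and its difference of -0.49 ± 0.15 was called (adjusted p = 0.0445). With library size only, neither Dapk3 call held (adjusted p = 0.135 in 129S6/SvEvTac and 0.0773 for the difference). Ilk, a kinase adaptor of integrin adhesions, fell in C57BL/6J (-0.60), and its difference between strains was called (-0.86 ± 0.15, adjusted p = 0.00445).

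Of 27 other dense-body, dense-plaque and intermediate filament genes, 15 fell and 2 rose with AngII in C57BL/6J (median log2 fold change -0.49), beside 17.1% and 21.8% of all genes. In 129S6/SvEvTac 4 rose and 0 fell, beside 7.71% and 4.47% (median 0.12, and -0.05 with library size only, where the median of all genes was -0.16). The C57BL/6J effect was lower than the 129S6/SvEvTac effect for 12 of the 27 and higher for 1, beside 4.62% and 5.34% of all genes. Dtna, a dystrobrevin of the dystrophin complex, averaged 48.1 ± 22.4 CPM with AngII and 126 ± 9.69 CPM in controls of C57BL/6J (SD, n = 4 each), and its difference between strains was -1.45 ± 0.30 (adjusted p = 0.00969). Tln1, talin 1, which ties integrins to actin, fell to 61.5% of control in C57BL/6J (adjusted p = 0.000188), and Cav1, caveolin 1, to 62.7% (adjusted p = 0.000371). Sgcd, delta-sarcoglycan, fell to 53.0% (adjusted p = 0.000135). Tln2, talin 2, rose 2.06-fold in C57BL/6J (adjusted p = 8.89e-05) and not in 129S6/SvEvTac (log2 fold change 0.16, adjusted p = 0.56), a called difference of 0.88 ± 0.22 (adjusted p = 0.0197). Palld, palladin, an actin-bundling protein of dense bodies, rose in both strains, 2.15-fold in C57BL/6J (adjusted p = 2.92e-06) and 1.88-fold in 129S6/SvEvTac (adjusted p = 8.21e-05). Actn4, a non-muscle alpha-actinin, and Pdlim5, a PDZ-LIM protein that binds alpha-actinin, rose in 129S6/SvEvTac (0.67, adjusted p = 0.00328, and 0.78, adjusted p = 0.0202) and were not called in C57BL/6J (0.10 and 0.13). Their differences between strains were not called (adjusted p = 0.0564 and 0.167).

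Of 15 other actin, myosin and thin-filament genes, 14 were tested, and with AngII in C57BL/6J 8 fell and 2 rose (median -0.46), beside 17.1% and 21.8% of all genes. In 129S6/SvEvTac 1 fell and 3 rose (median 0.09), beside 4.47% and 7.71%, and with library size only 2 fell and 2 rose. Tpm1 and Tpm2, tropomyosins of smooth muscle, fell to 50.9% and 46.6% of control in C57BL/6J, with differences between strains of -1.07 ± 0.23 and -1.04 ± 0.24 (SE, adjusted p = 0.0112 and 0.0149). Myl6, an essential myosin light chain, fell to 47.3% in C57BL/6J (adjusted p = 7.24e-06). Tpm4, a tropomyosin of non-muscle filaments, rose in both strains, 3.17-fold in C57BL/6J (adjusted p = 1.61e-06) and 2.77-fold in 129S6/SvEvTac (adjusted p = 2.32e-05). Myh9, a non-muscle myosin heavy chain, also rose in both, 1.76-fold (adjusted p = 0.000189) and 1.95-fold (adjusted p = 0.000308) in the same order. Tagln2, a relative of transgelin, was called higher in 129S6/SvEvTac (0.47, adjusted p = 0.0189), though not with library size only (adjusted p = 0.0837).

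Of 14 paralogues of the 9 genes tested, 4 fell and 3 rose with AngII in C57BL/6J (median 0.23), and the share higher was near the 21.8% of all genes (17.1% lower). In 129S6/SvEvTac 2 fell and 2 rose (median 0.14), beside 4.47% and 7.71%, and with library size only 2 fell and 0 rose. Unlike Pgm5, the phosphoglucomutase Pgm2 rose 2.37-fold in C57BL/6J (adjusted p = 8.51e-06) and 1.48-fold in 129S6/SvEvTac (adjusted p = 0.0133), the second call being lost with library size only (adjusted p = 0.0527). It averaged 18.1 ± 2.28 CPM with AngII and 7.63 ± 0.839 CPM in controls of C57BL/6J, and 12.1 ± 1.69 CPM with AngII and 8.22 ± 1.17 CPM in controls of 129S6/SvEvTac. Pgm3, a phosphoacetylglucosamine mutase, rose 1.96-fold in C57BL/6J (adjusted p = 7.11e-05). Synpo2l, the relative of Synpo2 in striated muscle, fell in both strains, by a log2 fold change of -0.52 in C57BL/6J (adjusted p = 0.00455) and -0.45 in 129S6/SvEvTac (adjusted p = 0.0303). Of 15 transcription factors of smooth muscle, 6 fell and 2 rose in C57BL/6J (median -0.19), beside 17.1% and 21.8% of all genes. In 129S6/SvEvTac 1 fell and 1 rose (median -0.06), beside 4.47% and 7.71%, and with library size only 4 fell and 0 rose. Srf, serum response factor, averaged 92.2 ± 18.3 CPM with AngII and 158 ± 4.76 CPM in controls of C57BL/6J (SD, n = 4 each), and so fell by 0.77 ± 0.10 on the log2 scale (SE, adjusted p = 4.47e-05). Its effects differed between strains by -0.65 ± 0.15 (adjusted p = 0.0143). Klf4, a repressor of contractile genes in smooth muscle, rose 2.02-fold in C57BL/6J (adjusted p = 2.51e-05), with a difference between strains of 0.88 ± 0.18 (adjusted p = 0.00833). Mef2d fell to 67.8% of control in C57BL/6J (adjusted p = 0.000123). Mef2c was lower with AngII in both strains, at -0.50 (adjusted p = 0.0429) and -0.62 (adjusted p = 0.04) in C57BL/6J and 129S6/SvEvTac. Tead1, which binds the MCAT element, was called higher in 129S6/SvEvTac (0.61, adjusted p = 0.0287), again not with library size only (adjusted p = 0.0744). Myocd, myocardin, the coactivator of serum response factor in smooth muscle, averaged 64.3 ± 24.8 CPM with AngII and 70.0 ± 13.6 CPM in controls of C57BL/6J and was not called (adjusted p = 0.725). It is named here because the promoter search bears on its partner, a choice made after its values were seen.

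**Figure D5:**
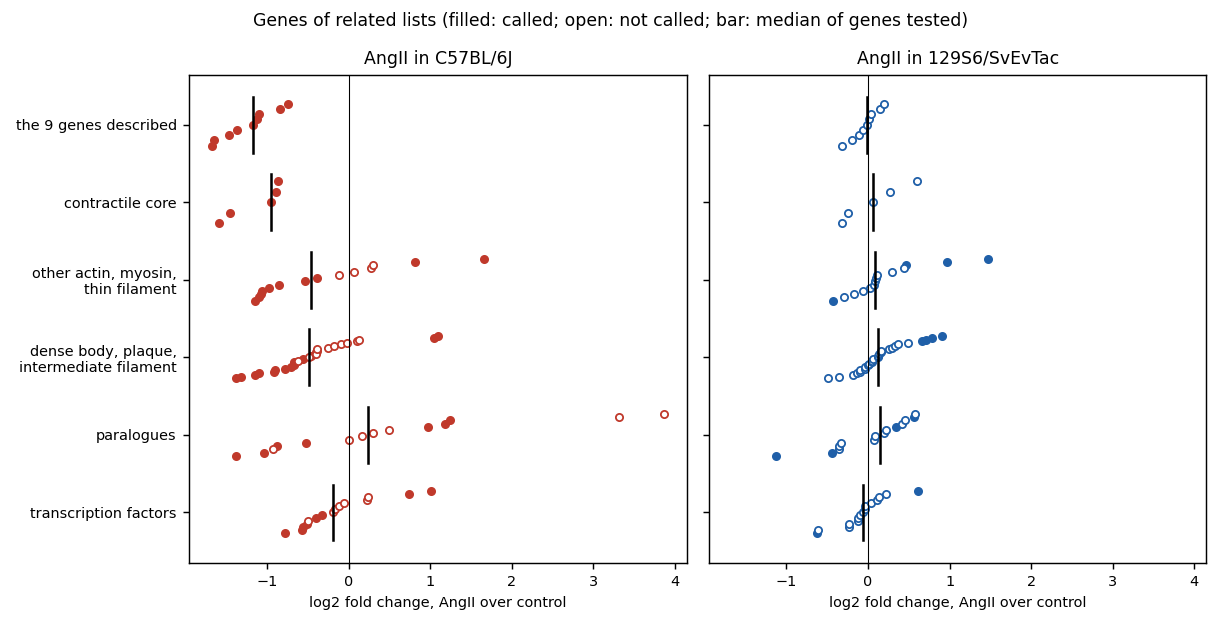
Log2 fold change of AngII over control for the 9 genes, the 5 contractile genes used for scaling and the related lists, in C57BL/6J (left) and 129S6/SvEvTac (right), one symbol per gene tested, filled where called, with a bar at each list's median. The 9 genes have the lowest median in C57BL/6J, -1.17, and a median of -0.01 in 129S6/SvEvTac, and the paralogues are the only list with a median above 0 in C57BL/6J, 0.23.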

How the data were processed

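RNA sequencing of 16 whole-aorta samples was analysed. Per the labels' protocols, the authors mapped reads to GRCm38 (mm10) with HISAT2 and estimated transcript abundance with StringTie on Gencode. The authors deposited expected counts for each gene, which are whole numbers throughout and were used without rounding. The submitters' processing notes name DESeq2 1.26.0 and R 3.6.2 without their role. Neither the Gencode release, nor how the counts were derived, nor the strandedness was stated. GENCODE M21 named 52489 of 52636 genes.

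The test was edgeR 4.0.16 in R 4.3.3: filterByExpr at a minimum count of 10, TMM, a robust quasi-likelihood fit with 1 mean per group over 16 libraries, and Benjamini-Hochberg adjustment over the 17125 genes kept. An adjusted p below 0.05 is a call. Standard errors come from the fold change and the F statistic. To obtain CPM, each count was divided by its library's total after TMM adjustment, and a prior count of 2 went into log2 CPM. The second scaling set library sizes proportional to the geometric mean of the counts of 5 contractile genes. Replicates of a group were never identical: chi-square per degree of freedom between them was at least 37.6. The pipeline was tested on simulated data. Same-numbered replicates deviated together weakly or not at all (r from -0.06 to 0.15 over 7 pairs). In 3 of the 7 the same-numbered control had the highest r of the controls. Replicates were not treated as pairs, and a replicate block was fitted as an alternative.

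The 9 genes, the related lists and the tests were chosen with earlier results of these data known. By rule, all 9 genes are named, with up to 3 called genes of at least 5 CPM per list and AngII comparison by smallest p, the 5 contractile genes, and the genes of most similar profile. A gene could be named under several lists. The counts of 1 of the related lists are not reported here. Alternatives were RLE scaling, library size alone, no filter on low counts, 1 CPM required in 4 samples, limma 3.58.1 voom with sample weights, DESeq2 1.42.0, only the groups compared, a replicate block, muscle and adipocyte scores as covariates, a core of Acta2 and Myh11, 2 libraries left out together, and each of the 16 left out in turn.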

Additional observations from a re-analysis of the deposited data

Results flagged for a closer look

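For 8 of the 9 genes the AngII effect differed between strains by edgeR's interaction test, with C57BL/6J minus 129S6/SvEvTac differences of -0.73 for Smtn (adjusted p = 0.0223), -1.49 for Lmod1 (0.00192), -1.54 for Ppp1r14a (0.0023), -1.11 for Ppp1r12b (0.0193), -1.29 for Des (0.0023), -1.48 for Synpo2 (0.0389), -1.27 for Csrp1 (0.00944) and -1.05 for Pgm5 (0.0438). Of all genes tested, 9.96% were called. Synpo2 and Pgm5 each lost the call in 14 of the 16 fits that left out a library. In each of the 8, all 4 C57BL/6J AngII samples were below all 4 of their controls, and the 129S6/SvEvTac groups overlapped. Of all genes, 16.03% were lower with AngII without overlap in C57BL/6J. In 129S6/SvEvTac 10.56% were lower and 12.4% higher without overlap, so most genes overlapped there. Scaled to the contractile genes, Smtn alone differed, by 0.55 (adjusted p = 0.0238), beside 70.9% of all genes, and the call was lost without any of 3 control libraries (adjusted p = 0.0504 to 0.0533) and with a replicate block (0.0534).

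Single libraries stood apart from the other 3 of their group for 5 of the 36 gene and group combinations. Chance gives about 1 in 20 for a single combination. The genes share their libraries and varied together, so that rate does not tell whether 5 is more than chance gives. Smtn was highest in C57BL/6J control replicate 3, at 1567 CPM, in a group whose whole range was narrow. Cald1 was lowest in C57BL/6J control replicate 2, at 1727 CPM, and this library set the small gap between the Cald1 groups. Ppp1r14a was highest in 129S6/SvEvTac AngII replicate 4, at 262 CPM. Des was lowest in 129S6/SvEvTac AngII replicate 1, at 201 CPM, apart from 3 samples above all controls. Ppp1r12b was highest in 129S6/SvEvTac control replicate 4, at 1334 CPM.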

How the results depend on the processing

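No fold change of the 9 genes that was called reversed its sign under any alternative. The count called with AngII in C57BL/6J was 9 under every alternative except the adipocyte covariate and the omission of C57BL/6J AngII replicates 1 and 5 (8 each), and it was 0 in 129S6/SvEvTac under all. Leaving out each library in turn gave counts of 9 to 9 and 0 to 0 in these comparisons, 5 to 8 for the difference, 1 to 2 in controls and 8 to 9 with AngII. Over all genes it gave 5740 to 7173, 1402 to 2634, 1039 to 2990, 1354 to 2118 and 4478 to 6088, around 6664, 2087, 1706, 1783 and 5367. The difference count over all genes was 2685 with DESeq2, 2670 with voom, 1113 with the adipocyte covariate, 1049 without C57BL/6J AngII replicate 1 and 129S6/SvEvTac AngII replicate 5, and 1027 without C57BL/6J AngII replicates 1 and 5, which also gave 4 of the 9 genes in place of 8. Of single omissions, C57BL/6J AngII replicate 3 gave 2990, 129S6/SvEvTac AngII replicate 4 gave 1076 and 129S6/SvEvTac control replicate 2 gave 1039. Voom called 3324 genes for AngII in 129S6/SvEvTac, and 3209 genes and 2 of the 9 in controls, and fitting only the control groups called 2772 and 3. DESeq2 also called Cald1 in the difference (adjusted p = 0.0471). For the contractile scaling, single omissions gave 3 to 4, 0 to 0, 0 to 2, 0 to 2 and 4 to 7 of the 9 in the order above. With a replicate block the difference and control counts on that scale were 0 in place of 1 each, Cald1 with AngII lost its call between strains (-0.65, adjusted p = 0.0782), and the other member counts were as without the block. The causes were not tested. With library size only, 45.4% of calls were higher for AngII in C57BL/6J in place of 56.1%, 25.2% in place of 63.3% in 129S6/SvEvTac and 65.2% in place of 53.6% for the difference, the all-gene median in 129S6/SvEvTac moved to -0.16, and the counts of the 9 genes were unchanged. The medians of the lists of related genes reported here in 129S6/SvEvTac then ranged from -0.22 to -0.03. The difference has no separate fit with only the groups compared. The 9 genes had 51.1 CPM or more in every library, so the spread between samples, not depth, set the precision.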
